A study of Mus musculus with 9 samples.

Results

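The genes described here are the MYC family of transcription factors with their dimer partners, and the factors that make ribosomes. MYC proteins bind DNA as dimers with MAX, and MXD proteins, MXI1 and MNT compete for MAX and repress. Ribosome production starts with transcription of ribosomal RNA by RNA polymerase I in the nucleolus, followed by its modification by small nucleolar RNPs and its cutting and folding into a small and a large subunit. Growing and malignant cells keep this programme high, and many of its genes are textbook MYC targets. Members were chosen by name from a list of 56, requiring 1 row in the expression table and a mean of 1 FPKM or more over 9 libraries. FPKM is a measure of sequenced fragments corrected for the length of the transcript and for library size. Of the 56 names 34 had a row, and 33 reached that mean, out of 6965 genes that did so among 15446 uniquely named genes. Mxd1, the member nearest the limit, had a mean of 1.25 FPKM, and Mycn, the only gene left out by it, had 0.154 FPKM. The 22 names without a row, among them Npm1, Ddx21, Dkc1, Polr1b, Mnt and Mxi1, were not analysed here.

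The samples were 3 libraries of Csmd3 knockout cells made with guide 2, 3 of Csmd3 knockout cells made with guide 1, and 3 of the wild-type control without a knockout. All came from ROC6, a murine line of oral squamous cells, grown in the same serum-containing medium, and polyadenylated RNA was sequenced. The series describes each knockout as 1 clone, so a difference from the control may be that of a clone, and the labels do not call the replicates separate cultures, so the spread behind each p may be technical. Values of Csmd3 were not analysed here, and the knockout was therefore not checked. Of 19 squamous keratinocyte markers 9 had a row. Krt5, Krt14 and Trp63 had none, Krt13, Krt15 and Krt16 were listed at 0 in all 3 controls, and Perp stood at 83.4 ± 2.96 FPKM with guide 2, 105 ± 4.15 FPKM with guide 1 and 79.1 ± 3.84 FPKM in the control. The 3 squamous markers with a mean of 1 FPKM or more had log2 fold changes of FPKM + 1 against control of 0.40 to 1.70 with guide 1. With guide 2 these were 0.05 to 0.36. Errors of levels are SDs over 3 libraries throughout. Absolute depth is unknown. The value of 1 read in genes under 0.2 FPKM gave a relative depth between 0.638 (control replicate 3) and 1 (guide 2 replicate 1).

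Most of the 33 tested members were higher in the knockouts, and more of them with guide 2 than with guide 1. Rows with the knockout means on opposite sides of the control are nearly absent, as given below. Whether any of the 22 names without a row moved in opposite directions was not tested. The counts therefore describe the members with a row and not the full list of 56. Against the control, 29 of 33 were called higher and 2 lower with guide 2, where 31.9% and 33.5% of all tested genes were called higher and lower (65.4% in either direction). With guide 1, 19 of 33 were called higher and 2 lower, where 30.2% and 37.9% of all tested genes were (68.1% in either direction). All 3 libraries lay above all 3 controls in 28 members with guide 2 and 16 with guide 1, against 33.1% and 32.3% of all tested genes. They lay below in 2 members with each guide, against 35.5% of tested genes with guide 2 and 39.7% with guide 1. A call is a limma adjusted p under 0.05 over all 6965 genes, on log2(FPKM + 1). The members were chosen with earlier results of these data known, so their counts beside all tested genes are a description and no independent test. These counts include Mycl, which passed the minimum mean only through its guide 1 libraries. Without it 28 of 32 were called higher and 2 lower with guide 2, and 18 higher and 2 lower with guide 1. The median log2 fold change of the 33 was 0.41 with guide 2 and 0.20 with guide 1, against -0.03 and -0.04 over all genes tested. With both guides 18 of the 33, Mycl among them, were called higher and 1 lower, beside 22.6% and 26.2% of all tested genes. In 15441 of the 15446 uniquely named rows both knockout means lie on the same side of the control, so a shared direction is a property of the table and not a result, and both comparisons use the same 3 controls. FPKM are relative to the RNA of each library, so more transcripts per cell and fewer other transcripts cannot be told apart, nor can fewer cells of a type and less RNA per cell. On the log2(FPKM + 1) scale the largest increase was in Mycl with guide 1, followed by Bop1 and Rrp9 with guide 2, and the largest decrease with each guide was in Mxd4.

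**Figure D1:**
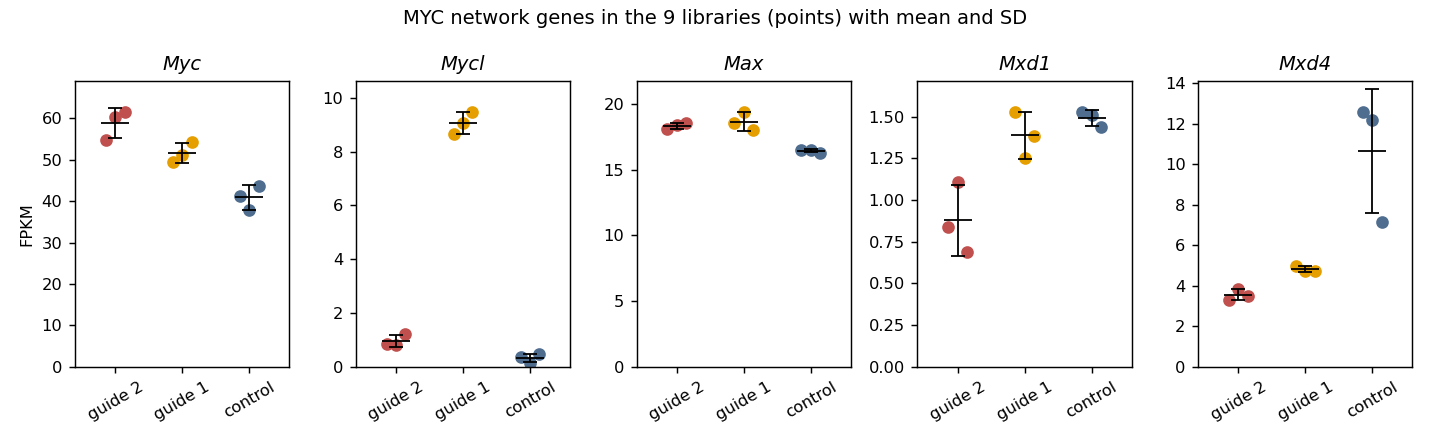
FPKM (vertical axes, from 0, each gene on its own scale) of the 5 tested MYC network genes in the libraries of guide 2, guide 1 and control (horizontal axes). Points are libraries and bars are the mean and SD. Mycl stands high only in guide 1, at 8.67 to 9.49 FPKM, and the Mxd4 controls are split, with replicate 3 at 7.12 FPKM.

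Within the MYC network Myc and Max were called higher and Mxd4 lower with both guides, and Mxd1 was called lower with guide 2 only. Mycl was also higher with both guides, but it passed the minimum mean only through guide 1. Mycn, which was not tested, lay below every control in all knockout libraries. Myc, the broadly expressed founder of the family, stood at 54.7, 60.3 and 61.7 FPKM with guide 2, at 49.6, 51.2 and 54.2 FPKM with guide 1 and at 41.2, 37.8 and 43.8 FPKM in the control. The 3 groups did not overlap, and guide 2 was highest. The log2 fold change against control was 0.51 with guide 2 (SE 0.0654, limma adjusted p = 5.61e-05) and 0.33 with guide 1 (SE 0.0654, limma adjusted p = 0.0011). The difference of 0.18 between guide 2 and guide 1 passed the test (limma adjusted p = 0.0356), but 7 of 17 alternatives ended that call. Among these were the omissions of guide 2 replicates 2 and 3 and of guide 1 replicates 1 and 2 (adjusted p between 0.0149 and 0.120 over all 17).

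Mycl, which encodes L-MYC, had the largest change of any member. It stood at 0.845, 0.810 and 1.22 FPKM with guide 2, at 8.67, 9.05 and 9.49 FPKM with guide 1, and at 0.340, 0.146 and 0.458 FPKM in the control. Guide 1 lay far above both other groups, and guide 2 above the control with a narrow gap. The mean was 28.8 times that of the control with guide 1 and 3.05 times with guide 2. On the log2(FPKM + 1) scale, which understates changes of low genes, the fold changes were 2.94 with guide 1 and 0.58 with guide 2, and the difference of guide 2 minus guide 1 was -2.37 (SE 0.107 for each). Mycl reached the minimum mean through the guide 1 libraries alone, so its guide 1 values are a description with no test. Even there its level per transcript length, 9.07 ± 0.411 FPKM, was below that of Myc, 51.7 ± 2.35 FPKM. Mycn, the neural member of the family, was at 0.0493, 0 and 0 FPKM with guide 2, at 0.210, 0.161 and 0.0898 FPKM with guide 1 and at 0.268, 0.303 and 0.311 FPKM in the control, and was not tested.

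Max, the common dimer partner, was higher by a small amount. It stood at 18.1, 18.4 and 18.5 FPKM with guide 2, at 18.5, 19.4 and 18.0 FPKM with guide 1 and at 16.5, 16.5 and 16.3 FPKM in the control. Both knockouts lay above every control and overlapped each other. Fold changes (log2) were 0.15 with guide 2 and 0.17 with guide 1 (limma adjusted p = 0.0117 and 0.00501).

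Mxd4, a MAX partner that represses E-box genes, fell with both guides. It stood at 3.31, 3.85 and 3.47 FPKM with guide 2, at 4.97, 4.74 and 4.70 FPKM with guide 1 and at 12.6, 12.2 and 7.12 FPKM in the control. The groups did not overlap, but control replicate 3 lay well below the other controls. The log2 fold changes were -1.32 with guide 2 and -0.97 with guide 1 (SE 0.162 for each, limma adjusted p = 4.39e-05 and 0.000364). Without control replicate 3 they were -1.56 and -1.21. The difference of -0.36 between guide 2 and guide 1 did not pass (limma adjusted p = 0.0895), though it did without control replicate 3 (adjusted p = 0.000736, the lowest of a range up to 0.231 over 17 alternatives) and with only the libraries compared. Mxd1, another repressor of this family, was at 0.837, 1.11 and 0.688 FPKM with guide 2, at 1.53, 1.25 and 1.38 FPKM with guide 1 and at 1.52, 1.51 and 1.44 FPKM in the control. Only the guide 2 libraries lay below the control, with a log2 fold change of -0.41 (limma adjusted p = 0.00288), while guide 1 had -0.06 (limma adjusted p = 0.572). Guide 2 was below guide 1 by -0.35 log2 units (limma adjusted p = 0.00919).

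MYC and MAX dimers and MXD and MAX dimers bind the E-box CACGTG, which reads the same on both strands. The start region of 30 of the 33 members was found by symbol in RefSeq (GRCm38.p6), as windows of 250 bases before to 50 after each start. The letters CACGTG occurred in a window of 8 of these 30 genes (26.7%), namely Max, Mxd4, Rrn3, Nop2, Pes1, Grwd1, Wdr43 and Mybbp1a. They occurred for 11.6% of the 4971 tested genes found in the table and for 8.09% of all 27025 genes in it. The upstream regions of 4 genes are given to show windows without and with the letters: Mycl, with the largest log2 increase and no match, Mxd4, with the largest decrease and a match 219 bases before the start, and Nop2 and Rrn3, which rose and hold matches 60 bases before the start in Nop2 and 215 and 48 bases before it in Rrn3. Each run is the 250 bases before the start, 5′ to 3′, with CACGTG in capitals. A match is a description of the letters and says nothing of binding here.
Mycl chr4:122995681-122995930 (+ strand): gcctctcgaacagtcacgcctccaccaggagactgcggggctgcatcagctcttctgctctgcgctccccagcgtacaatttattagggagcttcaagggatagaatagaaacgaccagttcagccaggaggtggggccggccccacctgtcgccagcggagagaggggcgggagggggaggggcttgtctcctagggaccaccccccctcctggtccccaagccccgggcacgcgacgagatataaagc
Mxd4 chr5:34187711-34187960 (- strand): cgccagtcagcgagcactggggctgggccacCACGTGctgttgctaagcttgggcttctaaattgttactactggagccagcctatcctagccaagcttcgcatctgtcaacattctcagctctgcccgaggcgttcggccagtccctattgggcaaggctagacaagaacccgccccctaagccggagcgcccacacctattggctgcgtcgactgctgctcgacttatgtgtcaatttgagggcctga
Nop2 chr6:125131633-125131882 (+ strand): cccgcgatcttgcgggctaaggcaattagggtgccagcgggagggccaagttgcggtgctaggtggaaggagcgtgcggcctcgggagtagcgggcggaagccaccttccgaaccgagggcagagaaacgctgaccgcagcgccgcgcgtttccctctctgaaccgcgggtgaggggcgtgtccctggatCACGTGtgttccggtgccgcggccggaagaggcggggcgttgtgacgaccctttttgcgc
Rrn3 chr16:13780449-13780698 (+ strand): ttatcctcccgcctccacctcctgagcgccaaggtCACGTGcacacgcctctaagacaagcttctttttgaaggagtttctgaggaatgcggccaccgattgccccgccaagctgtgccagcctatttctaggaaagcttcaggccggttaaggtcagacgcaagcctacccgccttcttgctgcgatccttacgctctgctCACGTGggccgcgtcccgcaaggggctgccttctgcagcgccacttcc

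RNA polymerase I genes had a row for 4 of 6 names, and all 4 were called higher with guide 2 and 3 with guide 1. Of all tested genes 31.9% were called higher with guide 2 and 30.2% with guide 1. Polr1a, the largest subunit of the enzyme, stood at 11.6, 12.7 and 13.7 FPKM with guide 2, at 8.95, 9.31 and 9.17 FPKM with guide 1 and at 7.25, 7.72 and 8.35 FPKM in the control. The 3 groups were separate and in that order. Log2 fold changes were 0.64 with guide 2 (SE 0.0665, limma adjusted p = 1.34e-05) and 0.21 with guide 1 (limma adjusted p = 0.0163). The guide 1 call was lost without control replicate 1 (log2 fold change 0.17, adjusted p = 0.066, the highest of 17 alternatives, with 0.00487 the lowest). Guide 2 exceeded guide 1 by 0.43 log2 units (limma adjusted p = 0.000347).

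Polr1c, a subunit shared with RNA polymerase III, was at 34.7, 31.0 and 31.1 FPKM with guide 2, at 29.1, 28.8 and 29.5 FPKM with guide 1 and at 24.0, 23.2 and 24.5 FPKM in the control. Rrn3, the factor that makes the polymerase competent to initiate, was at 30.3, 29.4 and 29.9 FPKM with guide 2, at 29.7, 26.6 and 29.7 FPKM with guide 1 and at 25.4, 24.8 and 23.1 FPKM in the control. Every knockout library of these genes lay above every control. The log2 fold changes of Polr1c were 0.41 with guide 2 and 0.27 with guide 1 (limma adjusted p = 4.76e-05 and 0.000807), and those of Rrn3 were 0.28 and 0.22 (limma adjusted p = 0.00122 and 0.00479). Ubtf, the upstream binding factor of ribosomal DNA, was at 32.5, 33.2 and 33.9 FPKM with guide 2, at 29.8, 28.8 and 30.9 FPKM with guide 1 and at 28.7, 28.4 and 30.6 FPKM in the control. Only guide 2 stood clear of the control, with a log2 fold change of 0.18 (limma adjusted p = 0.00681), and guide 1 had 0.03 (limma adjusted p = 0.609). The differences between guide 2 and guide 1, 0.14 for Polr1c and 0.15 for Ubtf, passed (limma adjusted p = 0.0389 and 0.0202), that of Rrn3, 0.06, did not (limma adjusted p = 0.402). For Polr1c 10 of 17 alternatives ended the call, among them the omission of control replicate 1, guide 2 replicate 1 or any guide 1 replicate (range of adjusted p 0.037 to 0.12). For Ubtf 4 did, namely quantile normalization and the omission of guide 2 replicate 2, guide 2 replicate 3 or guide 1 replicate 2 (range 0.0127 to 0.0753).

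Of the small nucleolar RNP genes 3 of 5 names had a row. Nop56, a core protein of the box C/D particles that guide ribosomal RNA methylation, stood at 86.6, 87.0 and 85.4 FPKM with guide 2, at 73.8, 75.4 and 71.8 FPKM with guide 1 and at 46.9, 51.2 and 60.3 FPKM in the control. Both knockouts lay above all controls, guide 2 above guide 1, and control replicate 3 was the highest control. The log2 fold changes were 0.71 with guide 2 and 0.48 with guide 1 (SE 0.0757 for each, limma adjusted p = 1.62e-05 and 0.000228). The difference of 0.23 between guide 2 and guide 1 passed (limma adjusted p = 0.0276), but the omission of guide 1 replicate 1 or 3, or of any guide 2 replicate, ended the call, as did 3 other alternatives (range of adjusted p 0.00136 to 0.0798).

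Fbl, the methyltransferase of the same particles, and Nop58, another core protein, had smaller fold changes. Fbl was at 38.6, 37.1 and 34.3 FPKM with guide 2, at 35.2, 33.5 and 31.7 FPKM with guide 1 and at 29.0, 28.9 and 35.8 FPKM in the control. Nop58 was at 21.3, 21.0 and 23.2 FPKM with guide 2, at 20.5, 19.8 and 19.7 FPKM with guide 1 and at 18.1, 17.6 and 20.7 FPKM in the control. In both genes control replicate 3 was highest among the controls and overlapped guide 1, and for Fbl guide 2 as well. The guide 2 log2 fold changes of 0.23 for Fbl and 0.21 for Nop58 passed (limma adjusted p = 0.0322 and 0.0163), those with guide 1, 0.10 and 0.09, did not (limma adjusted p = 0.298 and 0.261). Without control replicate 3 guide 1 passed for both (limma adjusted p = 0.0174 for Fbl and 0.0295 for Nop58, the lowest of ranges up to 0.645 and 0.623). Conversely, the guide 2 call of either gene was lost without control replicate 1 or 2. It was also lost without guide 2 replicate 1 or 2 or with no filter for Fbl and without guide 2 replicate 3 for Nop58 (highest adjusted p 0.116 for Fbl and 0.0676 for Nop58, lowest 0.00137 and 0.00167).

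**Figure D2:**
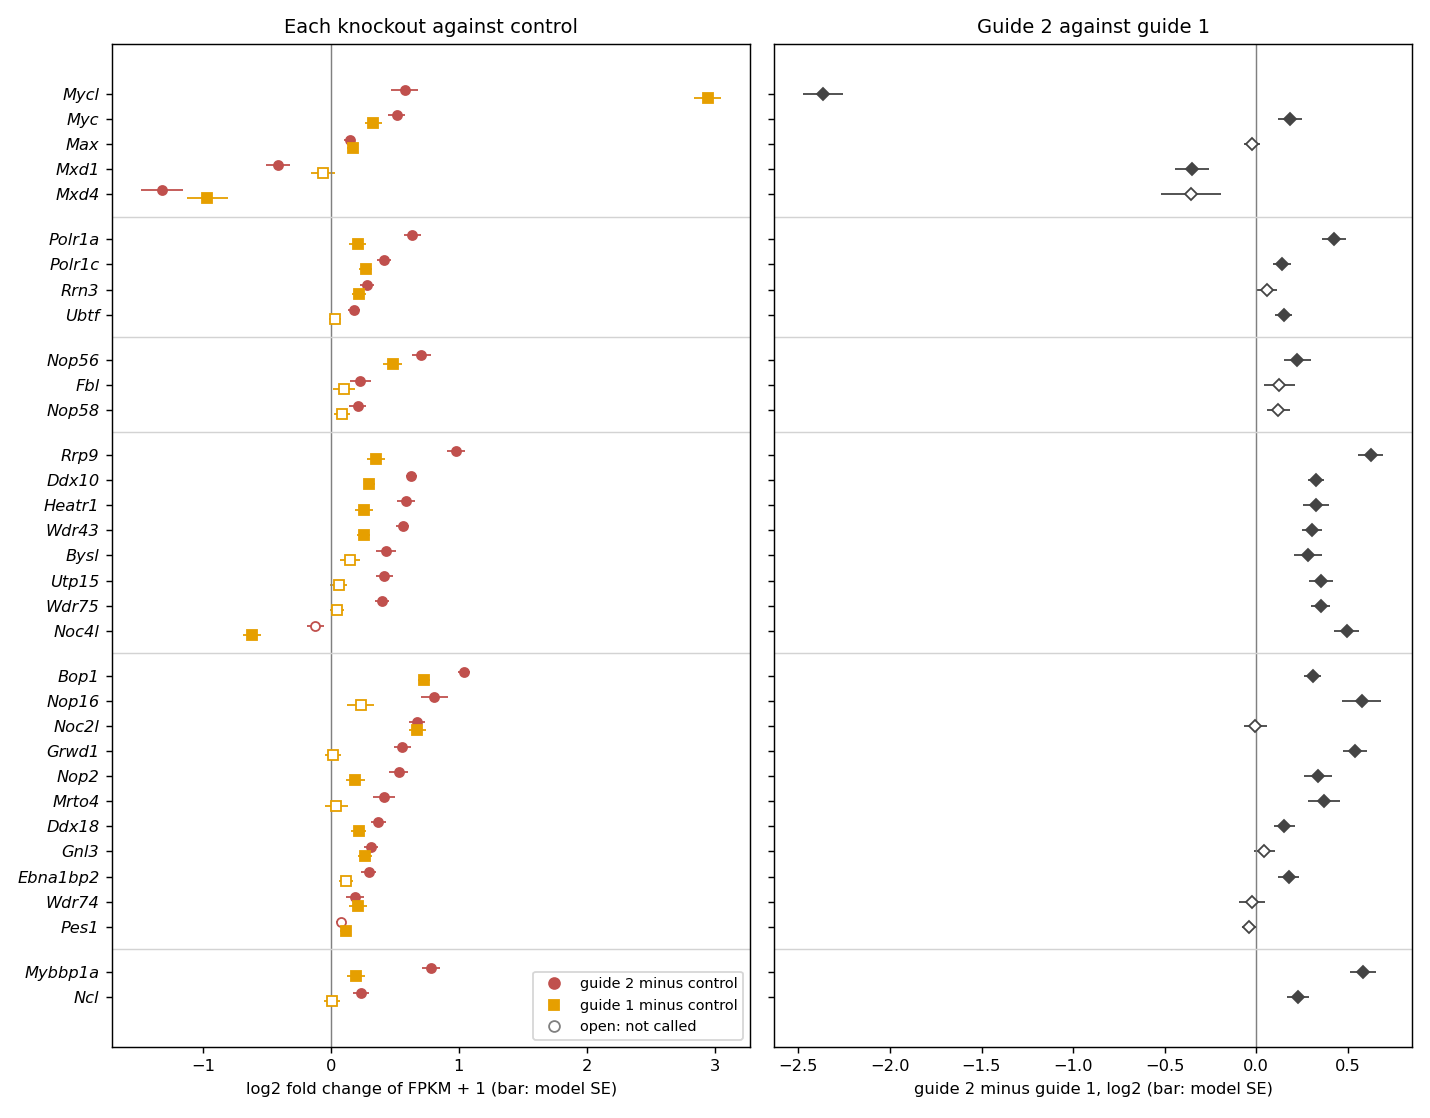
Log2 fold changes of FPKM + 1 (horizontal axes) of the 33 members (rows, grouped by role) for guide 2 (circles) and guide 1 (squares) against control on the left, and for guide 2 minus guide 1 on the right, where the diamonds are. Bars are model SEs and open symbols are differences that were not called. Apart from Mycl, Max, Noc4l, Noc2l, Wdr74, Pes1 and the MXD genes, the guide 2 circles lie to the right of the guide 1 squares and of 0.

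Small subunit processing factors had a row for 8 of 15 names, of which 7 were called higher with guide 2, and 4 higher and 1 lower with guide 1. The shares of all tested genes were 31.9% higher with guide 2, and 30.2% higher and 37.9% lower with guide 1. Rrp9, which binds the U3 RNA of the processome that cuts the ribosomal precursor, had the largest increase of these factors. It stood at 20.7, 17.9 and 19.3 FPKM with guide 2, at 12.0, 12.1 and 12.3 FPKM with guide 1 and at 8.57, 9.11 and 10.3 FPKM in the control. The groups were separate, with the guide 2 mean 2.07 times and the guide 1 mean 1.3 times that of the control. On the log2 scale the changes were 0.98 with guide 2 (SE 0.0698, limma adjusted p = 7.7e-07) and 0.35 with guide 1 (limma adjusted p = 0.00112).

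Ddx10, an RNA helicase of the early precursor, was at 17.3, 17.7 and 16.7 FPKM with guide 2, at 13.9, 13.3 and 13.3 FPKM with guide 1 and at 10.8, 10.8 and 10.7 FPKM in the control. Heatr1, a scaffold needed for ribosomal RNA transcription and early processing, was at 11.9, 13.1 and 12.5 FPKM with guide 2, at 9.47, 9.93 and 9.89 FPKM with guide 1 and at 7.49, 7.50 and 9.04 FPKM in the control. All 3 groups were again separate in both genes. The log2 fold changes with guide 2 and guide 1 were 0.63 and 0.30 for Ddx10 (limma adjusted p = 6.31e-07 and 0.000125) and 0.59 and 0.26 for Heatr1 (limma adjusted p = 3.79e-05 and 0.00758). Wdr43, another component of the same early complex, rose by 0.56 with guide 2 and 0.25 with guide 1 (limma adjusted p = 6.2e-06 and 0.00148).

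Noc4l, whose yeast counterpart works with Nop14 in small subunit maturation, was the exception among the 28 ribosome biogenesis members. It stood at 35.3, 36.1 and 36.6 FPKM with guide 2, at 25.4, 24.1 and 26.3 FPKM with guide 1 and at 37.9, 36.2 and 44.1 FPKM in the control. Guide 1 lay below both other groups, and guide 2 overlapped the control. The guide 1 log2 fold change was -0.62 (SE 0.0687, limma adjusted p = 1.8e-05). That of guide 2 was -0.12 (limma adjusted p = 0.143), which passed only without control replicate 2 (-0.18, adjusted p = 0.0479, the lowest of a range up to 0.507). Bysl, Utp15 and Wdr75, which act in small subunit assembly, rose with guide 2 by 0.43, 0.42 and 0.40, and their guide 1 values of 0.15, 0.06 and 0.05 were not called (limma adjusted p = 0.111, 0.434 and 0.451). Without control replicate 3 Bysl and Utp15 passed with guide 1 as well, at 0.23 and 0.14 (limma adjusted p = 0.0149 and 0.0432, the lowest of ranges up to 0.309 and 0.888). Bysl also passed after quantile normalization.

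Large subunit factors had a row for 11 of 18 names, of which 10 were called higher with guide 2 and 7 with guide 1, and none lower by limma (at an unadjusted p under 0.05 none was lower either). Among all tested genes 31.9% were called higher and 33.5% lower with guide 2, and 30.2% and 37.9% with guide 1. Bop1, a member of the PeBoW complex that matures the large subunit RNA, stood at 53.5, 53.2 and 55.6 FPKM with guide 2, at 43.3, 41.9 and 45.3 FPKM with guide 1 and at 25.4, 25.1 and 27.1 FPKM in the control. The groups lay far apart relative to their spread. The mean was 2.09 times that of the control with guide 2 and 1.68 times with guide 1, or 1.04 and 0.73 on the log2 scale (SE 0.0475 for each, limma adjusted p = 3e-08 and 3.12e-07). Pes1, its partner in that complex, stood at 53.2 ± 0.891 FPKM with guide 2, 54.6 ± 1.49 FPKM with guide 1 and 50.3 ± 1.40 FPKM in the control. Its log2 fold change of 0.12 with guide 1 passed (limma adjusted p = 0.0293) and that of 0.08 with guide 2 did not (limma adjusted p = 0.123). The guide 1 call was lost without control replicate 2, without guide 1 replicate 1 or 3 and with a constant prior variance (range of adjusted p 0.00197 to 0.108). The guide 2 value passed after quantile normalization (adjusted p = 0.0339, the lowest of a range up to 0.323). Wdr12, the remaining member of the complex, was not analysed here.

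Noc2l, a nucleolar factor of large subunit maturation, was at 54.9, 56.6 and 55.4 FPKM with guide 2, at 57.4, 56.6 and 53.4 FPKM with guide 1 and at 32.1, 33.2 and 38.7 FPKM in the control. The knockouts overlapped each other and lay well above the control. Both log2 fold changes were 0.67 (SE 0.0652, limma adjusted p = 7.76e-06 with guide 2 and 6.06e-06 with guide 1). Nop16, a nucleolar protein of large subunit assembly, and Grwd1, a WD repeat protein that binds histones and ribosomal protein, showed another pattern. Nop16 was at 41.6, 38.7 and 34.8 FPKM with guide 2, at 30.5, 22.8 and 23.3 FPKM with guide 1 and at 20.4, 20.8 and 23.2 FPKM in the control. Grwd1 was at 45.1, 42.0 and 45.9 FPKM with guide 2, at 30.4, 30.1 and 29.8 FPKM with guide 1 and at 28.6, 27.8 and 33.2 FPKM in the control. In both genes guide 2 stood alone and guide 1 overlapped the control. The guide 2 log2 fold changes were 0.81 for Nop16 and 0.56 for Grwd1 (limma adjusted p = 7.6e-05 and 3.2e-05). Those with guide 1 were 0.23 and 0.02 (limma adjusted p = 0.0768 and 0.832). For Nop16 guide 1 passed without guide 1 replicate 2, after quantile normalization and after trimmed mean rescaling (range of adjusted p 0.0372 to 0.294).

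The other large subunit members moved by 0.19 to 0.53 log2 units with guide 2. Nop2, a methyltransferase of the large subunit RNA, rose by 0.53 with guide 2 and 0.19 with guide 1 (limma adjusted p = 0.000132 and 0.0438). The guide 1 call of Nop2 was lost in 11 of 17 alternatives, among them the omission of any library but control replicate 3 (range of adjusted p 0.000155 to 0.158). The helicase Ddx18 rose by 0.37 and 0.22 with guide 2 and guide 1, the GTPase Gnl3 (nucleostemin) by 0.31 and 0.27, and Wdr74 by 0.19 and 0.21. Both Wdr74 calls were lost with no filter and without control replicate 1 or 2 or guide 1 replicate 2. The guide 2 call was also lost without guide 2 replicate 1 or 3 and with only the libraries compared (range of adjusted p 0.00533 to 0.138). The guide 1 call was also lost without guide 1 replicate 1 (range 0.0032 to 0.0905). Mrto4, which holds the place of the stalk protein on the immature large subunit, and Ebna1bp2 rose with guide 2, by 0.41 and 0.30, and their guide 1 values of 0.04 and 0.12 were not called. Ebna1bp2 passed with guide 1 without control replicate 3 and after either rescaling (lowest adjusted p 0.0215, highest 0.281).

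The last members work at several steps. Mybbp1a, a nucleolar protein that binds RNA polymerase I and MYB, stood at 97.1, 99.6 and 106 FPKM with guide 2, at 67.0, 65.6 and 68.0 FPKM with guide 1 and at 54.7, 54.6 and 66.2 FPKM in the control. Guide 2 was clear of both other groups, and guide 1 overlapped control replicate 3. Log2 changes against control were 0.78 with guide 2 (SE 0.0714, limma adjusted p = 4.9e-06) and 0.20 with guide 1 (limma adjusted p = 0.032). The guide 1 call was lost without control replicate 1 or 2, without any guide 1 replicate and with no filter (range of adjusted p 0.000512 to 0.118). Ncl, nucleolin, a main RNA-binding protein of the nucleolus and the most abundant member, was at 155, 153 and 157 FPKM with guide 2, at 135, 136 and 124 FPKM with guide 1 and at 126, 125 and 144 FPKM in the control. Guide 2 lay above both other groups, which overlapped each other. Its log2 fold change was 0.24 with guide 2 (limma adjusted p = 0.00621) and 0.01 with guide 1 (limma adjusted p = 0.929).

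**Figure D3:**
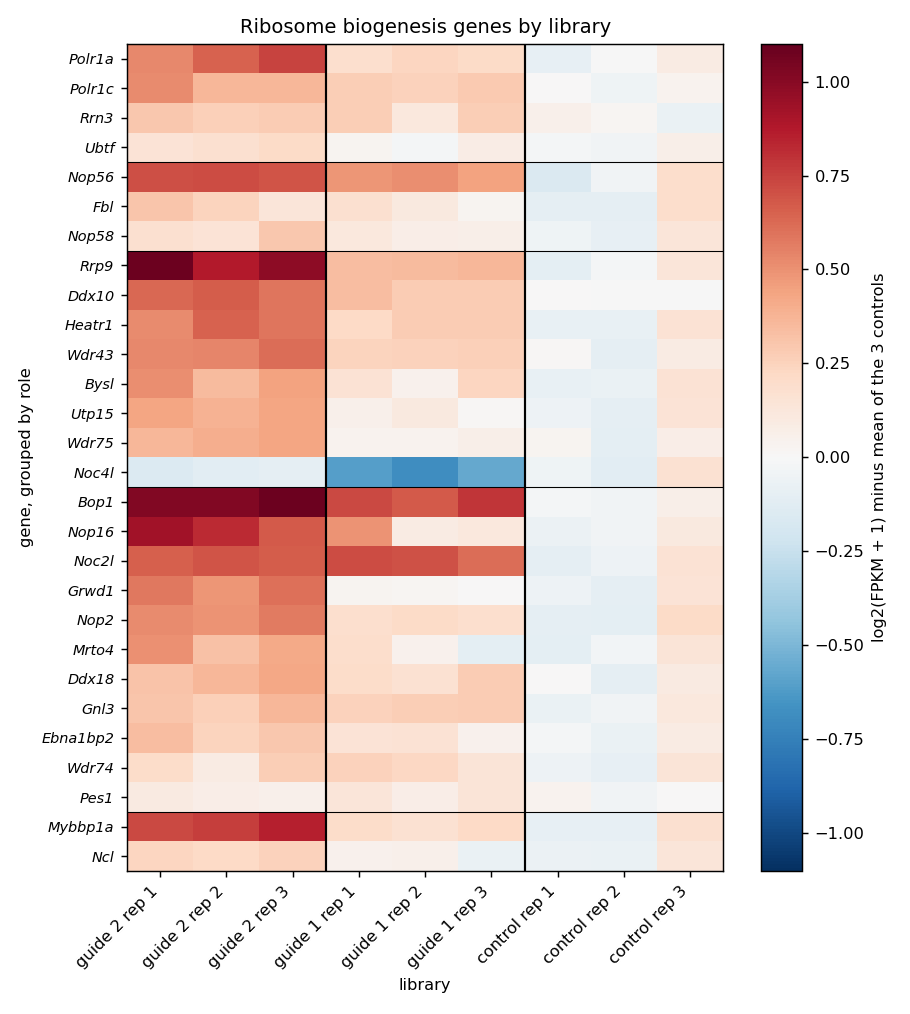
Log2(FPKM + 1) minus the mean of the 3 controls (colour scale) for the 28 ribosome biogenesis members (rows, grouped by role) in each library (columns: guide 2, guide 1, control). Red is above and blue below the control mean. For most genes the guide 2 columns are the darkest red, Noc4l is bluest in guide 1, and control replicate 3 is redder than the other controls in 25 of the 28 genes.

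The guides were compared with each other in a test whose log2 difference does not depend on the controls. The controls still enter the shared estimate of spread, and so the p of each difference. Of the 33 members 22 were called higher and 2 lower with guide 2 than with guide 1, where 31.2% and 23.3% of all tested genes were called higher and lower (54.5% in either direction). The guide 2 libraries lay above all guide 1 libraries in 23 members and below them in 3, where 34.8% and 26.6% of tested genes did so. The 2 called lower were Mxd1 and Mycl, the second through the guide 1 values that brought it over the minimum mean. All 8 tested small subunit factors were called higher with guide 2, by 0.28 to 0.63 log2 units, Noc4l included (0.49, limma adjusted p = 0.000157). Among members higher with guide 2, Rrp9 had the largest log2 difference, 0.63 (SE 0.0698, limma adjusted p = 3.2e-05), followed by Mybbp1a at 0.59, Nop16 at 0.58 and Grwd1 at 0.54. Of the large subunit factors 7 of 11 were called higher with guide 2, with Bop1 at 0.31 (limma adjusted p = 0.000313). Noc2l, Gnl3, Wdr74 and Pes1, with differences of 0.00, 0.04, -0.02 and -0.04, were not called. The calls of Ddx18 (0.15) and Ebna1bp2 (0.18) were lost in 9 and 4 of 17 alternatives. For Ddx18 these included the omission of control replicate 1, guide 2 replicate 2 or 3, or guide 1 replicate 1 or 2 (range of adjusted p 0.0203 to 0.14). For Ebna1bp2 they included that of guide 2 replicate 1 or 3, or guide 1 replicate 3 (range 0.0106 to 0.0817).

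Control replicate 3 stood apart from the other controls in these genes. It was the highest of the 3 controls in 25 of the 28 ribosome biogenesis members (89.3%), and in 35.4% of all tested genes. The median log2 deviation of these 28 from the control mean was 0.51, 0.38 and 0.43 in the guide 2 libraries and 0.20, 0.16 and 0.20 in the guide 1 libraries. In the control libraries it was -0.06, -0.07 and 0.13. By this median replicate 3 lay closer to the guide 1 libraries than to the other controls. It was also the library of the lowest relative depth, and the part of depth in its values was not tested. Without it the members called higher, Mycl included, numbered 24 with guide 1, in place of 19, and 29 with guide 2, as before. Of all tested genes 67.3% were then called in either direction with guide 1 and 64.1% with guide 2.

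**Figure D4:**
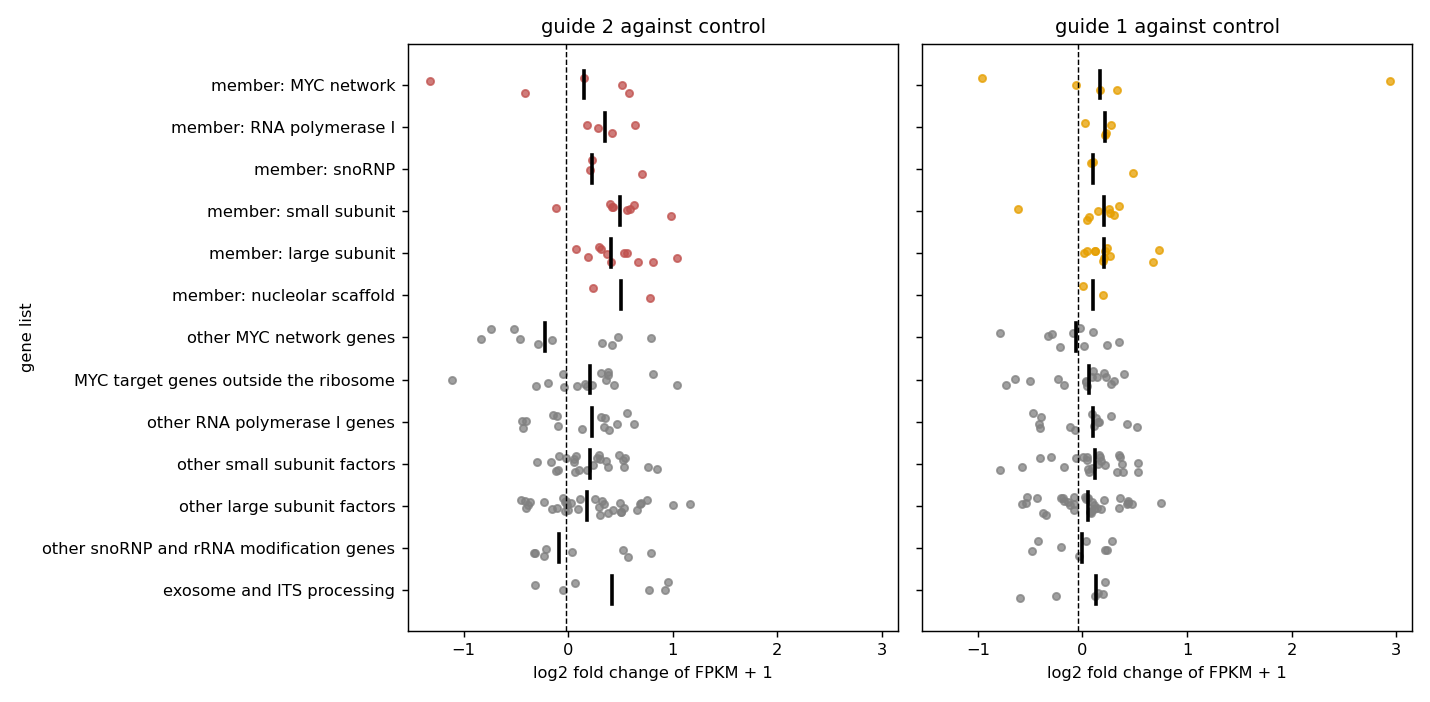
Log2 fold change of FPKM + 1 (horizontal axes) of each tested gene (points) in the member groups (coloured) and in 7 lists of other genes of the same pathways (grey), for guide 2 on the left and guide 1 on the right. Short bars are medians and the dashed line is the median of all 6965 tested genes. The other lists spread to both sides of the dashed line, with medians between -0.22 and 0.42 with guide 2.

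Other genes of the same pathways went both ways, and their counts stand beside the shares of all tested genes given above, 31.9% higher and 33.5% lower with guide 2 and 30.2% higher and 37.9% lower with guide 1. Of 50 further large subunit factors 34 were tested, with 17 called higher and 8 lower with guide 2, and 9 higher and 10 lower with guide 1 (median log2 fold change 0.18 and 0.05). The guide 1 shares, 26.5% higher and 29.4% lower, are near those of all tested genes. Pelp1, of the complex that releases the large subunit from the nucleolus, was at 33.2 ± 2.54 FPKM with guide 2, 19.6 ± 1.07 FPKM with guide 1 and 14.3 ± 0.721 FPKM in the control. Pop1, a protein of RNase MRP, rose by 0.76 with guide 2 and 0.75 with guide 1. The lowest log2 fold changes of these large subunit factors were -0.45 with guide 2 and -0.58 with guide 1. Of 43 further small subunit factors 24 were tested. With guide 2, 13 were higher and 2 lower, and with guide 1, 11 higher and 5 lower (median 0.21 and 0.12). Among those that rose were Rrp7a, by 0.84 and 0.36, and Utp23, by 0.76 and 0.54. Their lists' lowest log2 fold changes were -0.30 with guide 2 and -0.78 with guide 1.

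Of 17 further RNA polymerase I genes 14 were tested. With guide 2, 7 were called higher and 3 lower, and with guide 1, 3 higher and 4 lower (median 0.22 and 0.10). The guide 1 shares, 21.4% higher and 28.6% lower, are not above those of all tested genes. Polr1g, a subunit of the enzyme, rose by 0.56 and 0.43, and Kdm2b, a histone demethylase found at ribosomal DNA, fell by 0.44 and 0.48. Polr1d, another subunit, and Taf1b were also called lower with both guides. Their log2 fold changes with guide 2 and guide 1 were -0.40 and -0.41 for Polr1d and -0.44 and -0.39 for Taf1b. Of 17 further small nucleolar RNP and modification genes 8 were tested. With each guide 3 were higher and 3 lower (median -0.09 with guide 2 and 0.00 with guide 1). These shares, 37.5% in each direction, are near those of all tested genes. Snu13, a box C/D core protein, rose by 0.79 and 0.28, and Shq1, an assembly factor of H/ACA particles, by 0.57 and 0.23. The lowest log2 fold changes of this list were -0.33 with guide 2 and -0.49 with guide 1. Of 17 exosome and spacer processing genes 6 were tested, with 3 higher and 1 lower with guide 2 and 3 higher and 2 lower with guide 1 (median 0.42 and 0.13). Isg20l2, a nucleolar exonuclease, rose by 0.93 and 0.20. The exosome subunit Exosc7 rose by 0.95 with guide 2 and had 0.12 with guide 1, which was not called. The lowest log2 fold changes of these exosome and spacer genes were -0.31 with guide 2 and -0.60 with guide 1.

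Beyond the ribosome the MYC lists were mixed. Of 40 MYC target genes outside ribosome production 16 were tested. With guide 2, 10 were higher and 3 lower, and with guide 1, 6 higher and 5 lower (median 0.20 and 0.07). The guide 1 shares, 37.5% higher and 31.2% lower, are near those of all tested genes. Impdh2, which makes guanine nucleotides, stood at 56.7 ± 0.566 FPKM with guide 2, 31.4 ± 0.674 FPKM with guide 1 and 27.1 ± 1.09 FPKM in the control. Ccnd2, cyclin D2, fell by 1.11 with guide 2 and 0.18 with guide 1. Of 23 other genes of the MYC network and its cofactors 10 were tested. With guide 2, 4 were higher and 6 lower, and with guide 1, 2 higher and 4 lower (median -0.22 and -0.06). Here the guide 1 shares were 20% higher and 40% lower, not far from those of all tested genes. Mlxip, a MAX-like network member that senses glucose metabolites, was at 4.33 ± 0.456 FPKM with guide 2, 4.51 ± 0.0919 FPKM with guide 1 and 8.49 ± 0.365 FPKM in the control. Kat2a, a histone acetyltransferase recruited by MYC, rose by 0.79 with guide 2 and had 0.10 with guide 1, which was not called.

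Markers of other cell types were sparse beside these results. Of 10 leukocyte markers 2 had a row, with a summed level of 1.81 to 2.67 FPKM with guide 2, 1.2 to 1.54 FPKM with guide 1 and 0.473 to 0.875 FPKM in the control. Of 10 fibroblast markers 3 had a row, with sums of 13.8 to 14.6 FPKM, 8.81 to 12.2 FPKM and 3.70 to 4.0 FPKM in the same order of groups. Of 6 endothelial markers 2 had a row and summed to at most 0.714 FPKM in any library, and Lyz2 and Vwf were listed at 0 in the 3 controls. The part of these markers in the results was not tested. The exons of 13 of the 33 members overlap a gene on the opposite strand in GENCODE M21, among them Bop1 with Mroh1, Noc2l with Samd11, Nop56 with Idh3b, Rrp9 with Parp3 and Mybbp1a with Spns2. The libraries were stranded, but the sources used here do not say whether strand was used in counting, and reads of such pairs may not have been told apart.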

How the data were processed

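Poly(A) RNA from ROC6 cells gave 9 paired-end libraries that keep the strand, per the labels' protocols. The table deposited by the authors gives FPKM, per the file headers. Tools listed in the submitters' processing notes are cutadapt, FastQC, HISAT2 and StringTie, and their versions, the build and the annotation were not given in the sources used here. Groups and replicate numbers came from the sample titles. The table has 0 further columns of values by sample.

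Of 15620 rows, 174 that share 62 symbols were left out, and 8481 genes fell under the minimum mean of 1 FPKM. Values were analysed as log2(FPKM + 1), which understates fold changes of low genes, with limma 3.58.1 (R 4.3.3), fitted to 9 libraries (group means, mean-dependent prior variance, Benjamini-Hochberg adjustment over 6965 genes). SE refers to this model. Since FPKM are not counts, no count model was used. Relative depth was read as the most frequent ratio of values under 0.2 FPKM between libraries, in bins of 0.004 log2 units. Start regions and exon overlaps were matched by symbol to RefSeq (GRCm38.p6) and GENCODE M21.

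The members and lists were chosen with earlier results of these data known. Values by library are given for the MYC network, and in each other role for the 3 members with the largest mean of both fold changes and the 2 that differ most between guides; from other lists the 2 largest called genes were named. The levels of Mycn and Pes1, the upstream sequences, Polr1d, Taf1b and the lowest fold changes of other lists were added after values were seen. The fit was tested on simulated data. Alternatives changed the pseudocount (0.1), the filter (none, or 5 FPKM), the scaling (quantile normalization, or trimmed means without 30% at each end), the model (replicate block, constant prior variance) or the libraries (only those compared, or each left out).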

Additional observations from a re-analysis of the deposited data

Results flagged for a closer look

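The effect of the knockout differed between the clones for 24 of the 33 members by limma's test of guide 2 minus guide 1, which called 54.5% of all 6965 tested genes. Mycl is among the 24 as a description, since its guide 1 values brought it over the minimum mean. All values here are that difference in log2 units, so that a negative one means a lower level with guide 2. In the MYC network they were Myc 0.18, Mycl -2.37 and Mxd1 -0.35. Among RNA polymerase I and small nucleolar RNP genes they were Polr1a 0.43, Polr1c 0.14, Ubtf 0.15 and Nop56 0.23. Small subunit factors had Noc4l 0.49, Rrp9 0.63, Utp15 0.36, Wdr43 0.31, Wdr75 0.35, Heatr1 0.33, Ddx10 0.33 and Bysl 0.28. Large subunit factors had Bop1 0.31, Nop2 0.34, Nop16 0.58, Ddx18 0.15, Ebna1bp2 0.18, Mrto4 0.37 and Grwd1 0.54, and the other nucleolar proteins had Ncl 0.23 and Mybbp1a 0.59. Each knockout is 1 clone, so a difference between the guides and one between any 2 clones cannot be told apart.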

How the results depend on the processing

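Over 17 alternatives, 1562 of 1677 member values kept their direction and their side of the threshold, 85 lost a call, 15 gained one and 15 turned sign. Calls that held under every alternative that gave a value (17, or 16 for Mycl and Mxd1) were 28 of 31 with guide 2, 16 of 21 with guide 1 and 18 of 24 between guides. The counts of calls here include Mycl wherever it was tested, and its guide 1 values are a description with no test. With a filter of 5 FPKM, which leaves out Mycl and Mxd1, members called lower numbered 1 with guide 2 and 0 between guides. Limma was the only tool run. The values that turned sign did so only when 1 library was left out and were not called, with log2 ranges over the 9 omissions, against control with guide 1, of Mrto4 -0.0327 to 0.119, Ncl -0.0302 to 0.0747, Grwd1 -0.0314 to 0.0931, Wdr75 -0.00658 to 0.0824, and between guides of Noc2l -0.0343 to 0.0168, Wdr74 -0.0621 to 0.0277, Max -0.0465 to 0.00502. Over the 9 omissions members called higher ranged from 26 to 29 with guide 2, from 15 to 24 with guide 1 and from 17 to 22 between guides. Genes called in either direction ranged from 4212 to 4508, 4438 to 4805 and 3375 to 3885 of all 6965, in the same order. After quantile normalization or trimmed mean rescaling 17 were higher between guides, in place of 22, and no member value turned sign. The replicate numbers gave no consistent pairing of all libraries. Deviations of same-numbered libraries correlated between -0.107 and 0.245, and those of other pairs between -0.234 and 0.163. Between the knockouts, replicates 1 and 3 correlated at 0.245 and 0.210 with the same number, and at -0.204 and -0.234 when crossed. Replicate 2 of the knockouts gave 0.0219. With the replicate block 28 members were higher with guide 2, 19 with guide 1 and 22 between guides, and Fbl with guide 2 was the only call it ended (adjusted p = 0.0551). Absolute depth is unknown, so counting error could not be given.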
